A study of Mus musculus with 16 samples.

Results

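The measurements concern how the loss of the nuclear receptors FXR and SHP combine in mouse liver at 5 weeks of age. All 8 arrays of 5-week mice were used, of 16 arrays in the series, and the quantity followed is the non-additive contrast of each gene, the double knockout minus FXR-/- minus SHP-/- plus wild type on the log2 scale. It is 0 where the 2 single losses multiply each other's fold changes, positive where the double knockout lies above that product and negative where it lies below. The groups were wild type, FXR-/-, SHP-/- and the double knockout FXR-/-SHP-/-, with 2 arrays each, all from liver of male C57BL/6 mice on normal chow under a 12-hour light cycle. Both single knockouts were made congenic by backcrossing and were then crossed with each other to give the double knockout, whereas the wild-type animals came from a commercial supplier. A difference shared by the 3 knockout lines therefore enters the contrast with its sign turned, and mouse source and genotype cannot be told apart in it. The deletions are germline, so every cell type of the liver lacks the gene, and the labels do not say whether the 2 arrays of a group came from separate animals. P-values thus measure only the spread between these arrays, which may be technical.

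FXR, encoded by Nr1h4, is the nuclear receptor for bile acids, and SHP, encoded by Nr0b2, is an orphan receptor without a DNA-binding domain that represses other transcription factors. In hepatocytes, bile acid-bound FXR induces SHP, and SHP represses the bile acid synthesis genes Cyp7a1 and Cyp8b1, while intestinal FXR acts on the same genes through the hormone FGF15. Genes that either receptor can hold in check by itself are candidates for redundancy, in which only the loss of both changes the gene.

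The targeted gene was checked first. Nr1h4 levels were 10.55 and 10.60 in wild type, 5.92 and 5.97 in FXR-/-, 11.18 and 11.03 in SHP-/- and 5.87 and 6.17 in the double knockout, on the log2 scale of normalized intensity used throughout. Both FXR-deficient genotypes lay at least 4 log2 units under wild type, and the groups did not overlap, though the probe was still detected there. The Nr0b2 probe passed the detection filter in none of the groups, which left Nr0b2 untested and gave no check of the SHP genotype. The bile salt export pump Abcb11, a known FXR target, followed the FXR genotype: its effect was -0.95 in FXR-/- and -1.04 in the double knockout, both called, against 0.18 in SHP-/-, and its non-additive contrast of -0.27 ± 0.13 (SE, adjusted p = 0.21) was not called.

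Probes were detected on 39.0% to 42.4% of positions per array over the series, and the SD over probes of the difference between duplicates at 5 weeks was 1.25 to 1.45 bead standard errors, widest in the double knockout. The second double-knockout array had weak labelling and hybridisation controls. Its biotin signal was 903 where the other 7 arrays at 5 weeks had 2959 to 3487. Its low-stringency hybridisation signal was 1708.7 where they had 3821.7 to 4241.7. Without that array 858 genes had a called contrast, against 1063 with it and 777 to 920 over the 8 arrays left out in turn. Of the 17 hepatocyte markers tested, 16 or 17 were detected in each group, 1 contrast was called higher and 1 lower (7.56% and 5.5% of all genes).

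Markers of other tissues differed between the groups, and they reach the contrast. The mean log2 level of 30 skeletal muscle genes was 7.25 to 7.29 in wild type, 4.57 to 4.61 in FXR-/-, 8.09 to 8.11 in SHP-/- and 7.85 to 7.88 in the double knockout. Only 5 of these genes were detected on both FXR-/- arrays, against 27 to 29 in the other groups. The mean of 27 exocrine pancreas genes was 5.09 to 5.11 in wild type, 5.83 to 5.85 in FXR-/-, 7.59 to 7.6 in SHP-/- and 5.15 to 5.16 in the double knockout, with 6, 17, 25 and 6 genes detected. Muscle genes were thus nearly missing in FXR-/- alone. Pancreas genes were highest in SHP-/- and were also raised in FXR-/-, where 14 of the 27 were called higher than wild type. The muscle actin Acta1 had a contrast of 5.13 and the pancreatic protease gene Ctrb1 one of -9.82, the latter the largest of all genes. In whole tissue, fewer cells of a type and less RNA per cell cannot be told apart. Markers of muscle, pancreas and stomach or intestine made up 55 of the genes called below, and they are counted but not described as liver genes. Eif2s3y, a translation initiation subunit encoded on the Y chromosome, stood at 7.34 and 7.0 in wild type, 4.33 and 4.35 in FXR-/-, 7.17 and 7.51 in SHP-/- and 7.93 and 7.23 in the double knockout. All mice are labelled male, and this gene was not detected on either FXR-/- array at 5 weeks and had an effect of -3.42 in FXR-/- at 3 weeks. The other Y-linked gene tested, Kdm5d, a histone demethylase named after its values were seen, had an effect of 0.30 in FXR-/- that was not called.

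Of 8140 genes tested, 1063 had a non-additive contrast called by limma at an adjusted p under 0.05, which is 13.1% of all genes. The contrast was higher in 615 (7.56%) and lower in 448 (5.5%), and 294 (3.61%) were past a size of 1 on the log2 scale. The higher share was 57.9% of the called genes, and it was 68.9% (668 higher, 301 lower) when arrays were centred on their medians without quantile normalization. The median over all genes was 0.007. At the edge of the threshold stood Serpina10 at -0.37 and Eif6 at 0.33, both with adjusted p = 0.0498. FXR loss alone was called in 1369 genes (16.8%), SHP loss alone in 724 (8.89%) and the loss of both in 1988 (24.4%). These effects and the contrast share arrays, so noise in a single-knockout or wild-type array enters both.

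The called genes fell into classes by the calls of the single and double effects. In 226 redundant genes neither single loss was called and the double was, in the direction of the contrast. In 47 synergistic genes the double effect was larger than the sum of the single effects and at least 1 single loss was called in the same direction. In 364 masked genes at least 1 single loss was called and the double knockout was not called against wild type. In 152 overlapping genes the double knockout moved with a single loss but by less than the sum. In 137 reversed genes the double knockout was called in the direction opposite to a single loss, and 137 genes could not be placed. Without the second wild-type array the redundant class held 147 genes, without the first wild-type or the first FXR-/- array the synergistic class held 29, without the first wild-type array the reversed class held 82, and the unplaced class held 78 to 149 over the 8 arrays left out in turn. The classes are cut from calls, so a gene near the threshold of a single effect can change class.

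**Figure D1:**
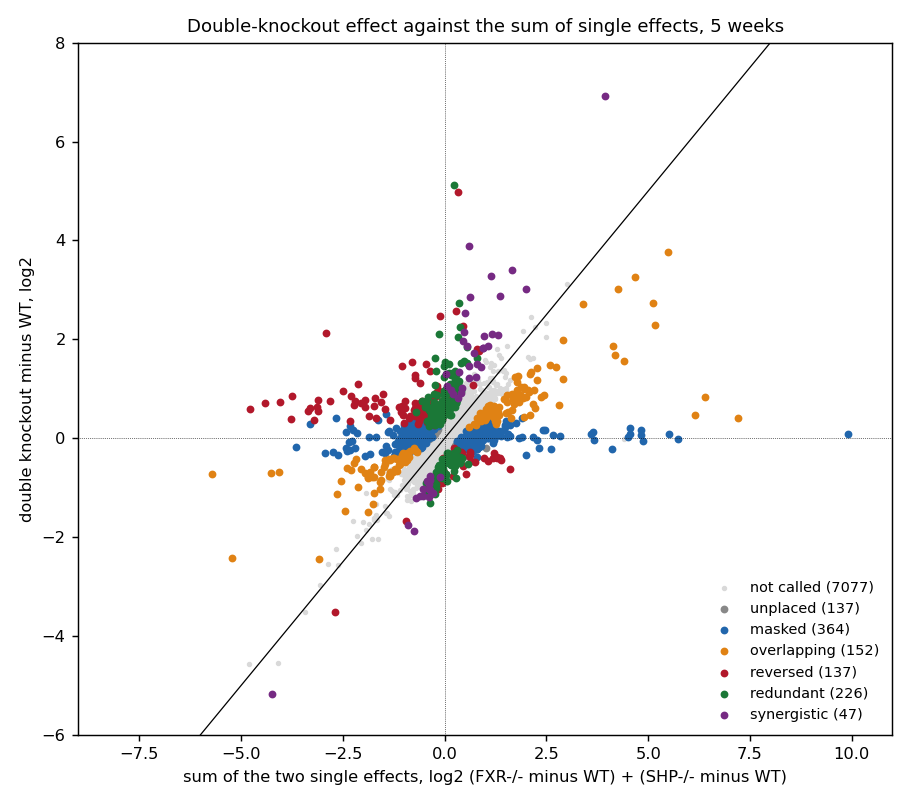
Each point is 1 of 8140 genes. The horizontal axis is the FXR-/- effect plus the SHP-/- effect and the vertical axis is the double-knockout effect, both against wild type in log2, with the line of additivity. Masked genes lie along the horizontal zero line, redundant genes along the vertical one, and Sult2a2 is the synergistic point at the top.

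Among the redundant genes 143 were higher and 83 lower. The largest was Cyp2b13, a cytochrome P450 of the family that the xenobiotic receptor CAR induces and a female-predominant enzyme in mouse liver. Levels of Cyp2b13 were 4.25 and 4.29 in wild type, 4.41 and 4.33 in FXR-/-, 4.38 and 4.39 in SHP-/- and 9.38 and 9.40 in the double knockout. It was detected in the double knockout and on no other array at 5 weeks, at least 22-fold above FXR-/- (adjusted p = 1.5e-16) and at least 23.5-fold above SHP-/- (adjusted p = 1.6e-16) by limma (contrast 4.90 ± 0.15, SE, adjusted p = 4e-14). Both double-knockout arrays lay outside the range of the other 6 in 225 of the 226 redundant genes, a pattern that 13.9% of all genes showed above and 11.7% below. The double knockout was called against each single knockout in 216 of them, where 19.5% of all genes were called against FXR-/- and 21.8% against SHP-/-. The class rule uses the same arrays, so these counts follow largely from it and are given as a description.

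Further redundant rises were spread over genes of different roles. Levels of Gipc2, a PDZ-domain adaptor, were 4.44 and 4.39 in wild type, 4.88 and 4.67 in FXR-/-, 4.37 and 4.44 in SHP-/- and 7.19 and 7.11 in the double knockout, with a contrast of 2.38 ± 0.17 (SE, adjusted p = 1.1e-08). Levels of Akr1c18, the progesterone-inactivating 20-alpha-hydroxysteroid dehydrogenase, were 4.28 and 4.41 in wild type, 4.37 and 4.28 in FXR-/-, 4.81 and 4.66 in SHP-/- and 6.59 and 6.59 in the double knockout, with a contrast of 1.88 ± 0.18 (SE, adjusted p = 3.8e-07). For both genes the probe was detected in the double knockout alone. Acot3, a peroxisomal acyl-CoA thioesterase and target of the fatty acid receptor PPAR-alpha, behaved likewise, at 4.40 and 4.78 in wild type, 4.50 and 4.77 in FXR-/-, 4.30 and 4.33 in SHP-/- and 6.17 and 6.27 in the double knockout (contrast 1.86 ± 0.21, SE, adjusted p = 5.5e-06). Hao2, a peroxisomal hydroxy acid oxidase chosen after its values were seen, had a contrast of 1.39 ± 0.23 (SE, adjusted p = 0.00037).

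Fos, Atf3 and Ddit3, transcription factors of stress responses, were also redundant rises. Fos, a subunit of the transcription factor AP-1, stood at 4.89 and 4.88 in wild type, 4.98 and 5.03 in FXR-/-, 4.70 and 4.56 in SHP-/- and 7.08 and 6.92 in the double knockout, a contrast of 2.25 ± 0.20 (SE, adjusted p = 1.7e-07). The stress-induced factor Atf3 had a contrast of 1.21 ± 0.19 (SE, adjusted p = 0.00021) and Ddit3, the ER stress factor CHOP, one of 1.23 ± 0.17 (SE, adjusted p = 4.4e-05). Neither single loss moved these 3 genes past the threshold. For Ddit3 the double effect was only 0.53. Its single effects were -0.31 for FXR loss and -0.39 for SHP loss (adjusted p = 0.094 and 0.05 by limma), the latter at the edge of a call. Levels of Cd14, the endotoxin co-receptor of macrophages, were 4.79 and 4.76 in wild type, 4.82 and 4.64 in FXR-/-, 4.95 and 4.72 in SHP-/- and 6.26 and 6.36 in the double knockout, and the double-knockout arrays stood more than 1 log2 unit above all others. The contrast by limma was 1.53 ± 0.25 (SE, adjusted p = 0.00026) for Cd14, 1.12 ± 0.14 (SE, adjusted p = 1.6e-05) for Lgals3 (galectin-3, abundant in macrophages) and 0.96 ± 0.19 (SE, adjusted p = 0.0016) for the metalloproteinase inhibitor Timp1. Of 18 macrophage and neutrophil markers tested, 6 were higher and 2 lower (7.56% and 5.5% of all genes). The summed intensity of the 18 markers was 2725 to 2841 in wild type, 3831 to 3883 in FXR-/-, 3473 to 3561 in SHP-/- and 4721 to 4824 in the double knockout. Their part in these rises was not tested. Psat1, an enzyme of serine synthesis, had a contrast of 1.02 ± 0.23 (SE, adjusted p = 0.0047).

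The redundant falls were smaller, with 2 of 83 genes past a size of 1, against 30 of the 143 rises. The probe was undetected in a group at 5 weeks in 35 of the rises and 2 of the falls, and the part of detection in the sizes was not tested. Arrdc3, an arrestin-domain adaptor, had levels of 9.15 and 9.31 in wild type, 9.15 and 9.11 in FXR-/-, 8.84 and 9.08 in SHP-/- and 7.89 and 7.94 in the double knockout, and a contrast of -0.95 ± 0.13 (SE, adjusted p = 4.3e-05). Falls were also seen for Upk3b, a uroplakin (-1.1 ± 0.19), Bik, a pro-apoptotic BH3 protein (-1.09 ± 0.20), and Nudt6, a Nudix hydrolase (-0.93 ± 0.18). Among genes of bile acid and sterol handling, Cyp7b1, the oxysterol 7-alpha-hydroxylase of the alternative bile acid pathway, stood at 11.38 and 11.46 in wild type, 11.67 and 11.31 in FXR-/-, 11.09 and 11.07 in SHP-/- and 10.33 and 10.29 in the double knockout. Its effect was -1.11 in the double knockout, called, against 0.06 in FXR-/- and -0.34 in SHP-/-, not called (contrast -0.83 ± 0.17, SE, adjusted p = 0.002). The sinusoidal uptake carriers Slc10a1 (NTCP) and Slco1b2 (an organic anion transporter) had contrasts of -0.83 ± 0.21 (SE, adjusted p = 0.01) and -0.79 ± 0.18 (SE, adjusted p = 0.0065). The call for Slc10a1 was lost without the first wild-type, the second FXR-/- or the second SHP-/- array (adjusted p up to 0.07 over all settings), and that for Slco1b2 with median centring (adjusted p = 0.074).

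Synergistic genes numbered 31 higher and 16 lower, and in 23 of the 31 FXR loss alone was called in the same direction. Cyp17a1, the steroid 17-alpha-hydroxylase and a reported SHP-repressed gene, stood at 5.57 and 5.73 in wild type, 6.37 and 6.2 in FXR-/-, 5.53 and 5.72 in SHP-/- and 9.52 and 9.55 in the double knockout. FXR loss raised it 1.55-fold, SHP loss alone left an effect of -0.03 that was not called, and the loss of both raised it 14.7-fold (contrast 3.28 ± 0.15, SE, adjusted p = 1.2e-11). Sult2a2, a hydroxysteroid sulfotransferase that conjugates bile acids in mouse liver, showed the widest range of the 47. Sult2a2 levels were 5.44 and 5.82 in wild type, 9.62 and 9.53 in FXR-/-, 5.58 and 5.67 in SHP-/- and 12.47 and 12.65 in the double knockout. The rise was 15.4-fold in FXR-/- and 122-fold in the double knockout, and SHP loss added 7.91-fold on the FXR-/- background while its own effect was -0.01 (contrast 2.99 ± 0.15, SE, adjusted p = 3.2e-11). For both genes SHP loss was called on the FXR-/- background and not on the wild-type background.

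Other synergistic rises included genes of matrix turnover, although none of the 22 stellate cell and matrix markers tested was synergistic (0 of 22). Mmp13, an interstitial collagenase, had levels of 4.56 and 4.42 in wild type, 5.21 and 5.10 in FXR-/-, 4.47 and 4.45 in SHP-/- and 7.40 and 7.30 in the double knockout, and a contrast of 2.23 ± 0.25 (SE, adjusted p = 3.3e-06). Gpnmb, a transmembrane glycoprotein of activated macrophages and stellate cells, had levels of 4.23 and 4.23 in wild type, 5.15 and 5.45 in FXR-/-, 4.34 and 4.25 in SHP-/- and 7.40 and 7.61 in the double knockout, and a contrast of 2.14 ± 0.19 (SE, adjusted p = 2e-07). Both were detected in FXR-/- and the double knockout and in no other group, and in both the 2 double-knockout arrays exceeded the FXR-/- arrays by about 2 log2 units. A second Gpnmb probe gave a contrast of 0.96. Mmp12, the macrophage elastase, chosen after its values were seen, had a contrast of 2.04 ± 0.21 (SE, adjusted p = 1.3e-06). Ly6d, a GPI-anchored surface protein, had a contrast of 1.76 ± 0.20 (SE, adjusted p = 4.2e-06). Jun, the other AP-1 subunit, rose with a contrast of 1.51 ± 0.21 (SE, adjusted p = 4.1e-05), the detoxifying enzyme gene Gstm3 with 1.67 ± 0.26 (SE, adjusted p = 0.00018) and the efflux pump gene Abcc4 with 1.0 ± 0.20 (SE, adjusted p = 0.002). Alas1, the rate-limiting enzyme of heme synthesis, named after its values were seen, stood at 10.91 and 10.86 in wild type, 11.59 and 11.50 in FXR-/-, 11.21 and 11.15 in SHP-/- and 12.96 and 12.96 in the double knockout, a contrast of 1.12 ± 0.11 (SE, adjusted p = 8.1e-07).

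Falls that were synergistic included Nr1d2, the circadian repressor REV-ERB-beta, at 7.94 and 8.18 in wild type, 7.91 and 7.80 in FXR-/-, 7.38 and 7.64 in SHP-/- and 6.17 and 6.18 in the double knockout (contrast -1.13 ± 0.16, SE, adjusted p = 8.7e-05). Serpina9, a serine protease inhibitor gene, had a contrast of -0.84 ± 0.18 (SE, adjusted p = 0.0026) and Adh4, an alcohol dehydrogenase gene, one of -0.82 ± 0.14 (SE, adjusted p = 0.00043). The male-predominant fatty acid hydroxylase Cyp4a12b stood at 10.79 and 10.87 in wild type, 7.33 and 7.26 in FXR-/-, 10.12 and 10.14 in SHP-/- and 5.73 and 5.57 in the double knockout, the widest range among the synergistic falls. Its effect was -5.18 in the double knockout, -3.53 in FXR-/- and -0.70 in SHP-/- (contrast -0.94 ± 0.17, SE, adjusted p = 0.00059). On linear intensities the same contrast was positive, at 593 intensity units, and with the deposited processed values it was not called (adjusted p = 0.069). Its close relative Cyp4a12a went another way and was a reversed gene. FXR loss raised Cyp4a12a by 0.695 and SHP loss by 0.60, and the double effect was -0.40 (contrast -1.69 ± 0.13, SE, adjusted p = 1.9e-08 by limma).

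**Figure D2:**
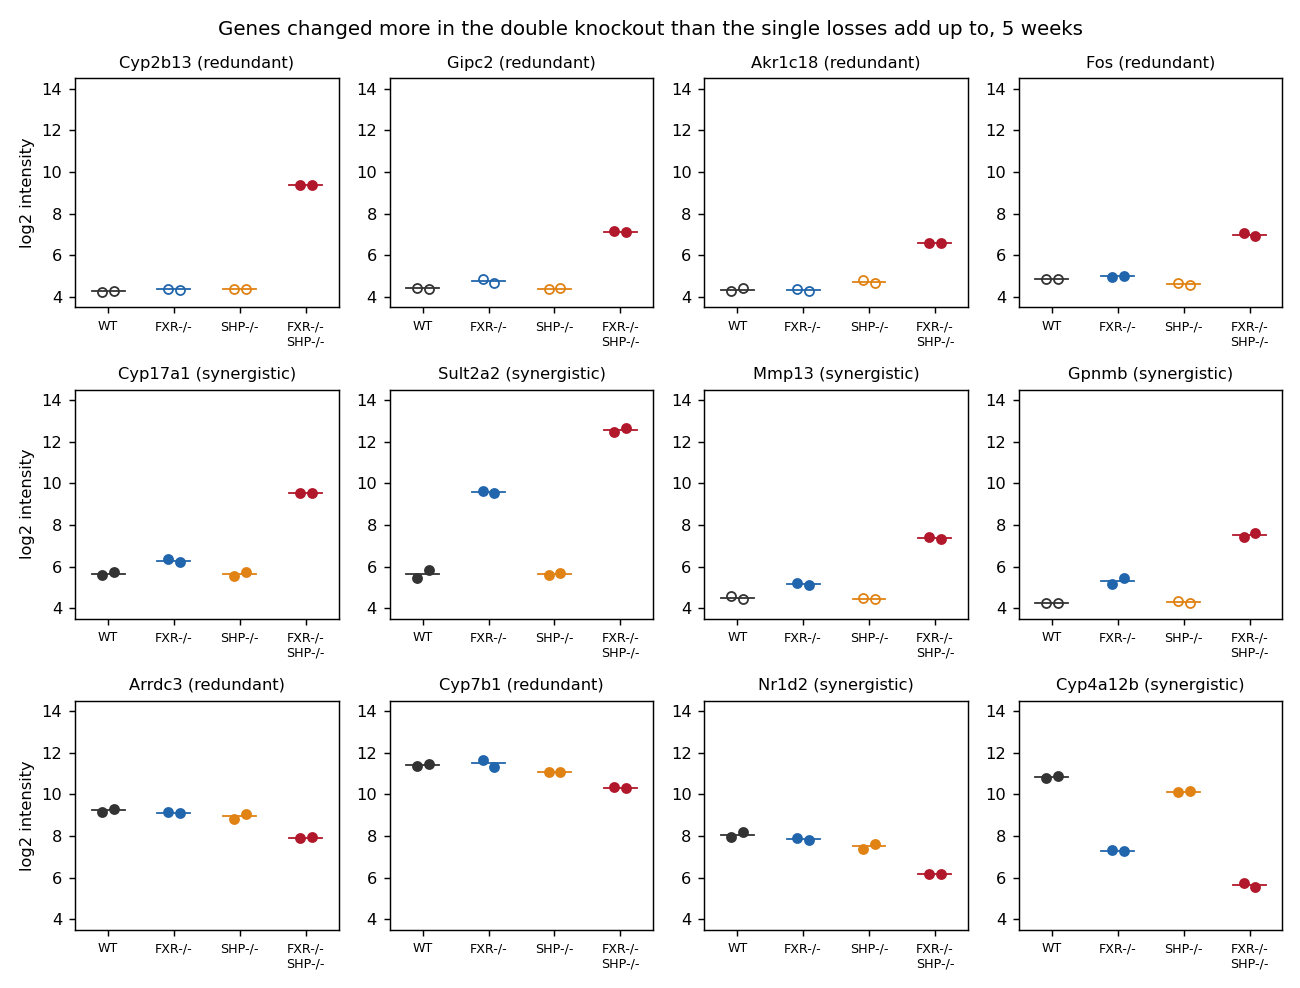
Log2 normalized intensity of 12 redundant or synergistic genes on each of the 8 arrays at 5 weeks, with a bar at each group mean of 2 arrays. Open symbols mark groups in which the probe was not detected on both arrays, and the double knockout lies apart from all 3 other groups in every panel.

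Sequence was set beside these values where RefSeq held a promoter. Cyp2b13 and its neighbour Cyp2b9 rose in the double knockout to 9.39 and 10.24 (group means), yet Cyp2b9 was detected in wild type and rose in SHP-/- (1.33) while Cyp2b13 was not detected in either. Their promoters, 300 bases around the start of each gene (GRCm38.p6, plus strand, chr7:26173159-26173458 for Cyp2b9 and chr7:26061245-26061544 for Cyp2b13), are printed because the genes differ in the single knockouts and their promoters are nearly the same. They matched at 298 of 300 positions (99.3%), and capitals mark the differences T48C and C104T, given as the Cyp2b9 base, the position from the 5′ end of the window and the Cyp2b13 base.
Cyp2b9: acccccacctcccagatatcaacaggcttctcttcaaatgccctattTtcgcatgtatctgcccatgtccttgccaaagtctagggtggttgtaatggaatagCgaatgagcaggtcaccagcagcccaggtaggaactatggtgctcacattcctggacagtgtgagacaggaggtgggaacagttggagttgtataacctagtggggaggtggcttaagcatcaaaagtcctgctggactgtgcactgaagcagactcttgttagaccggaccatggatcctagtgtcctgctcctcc
Cyp2b13: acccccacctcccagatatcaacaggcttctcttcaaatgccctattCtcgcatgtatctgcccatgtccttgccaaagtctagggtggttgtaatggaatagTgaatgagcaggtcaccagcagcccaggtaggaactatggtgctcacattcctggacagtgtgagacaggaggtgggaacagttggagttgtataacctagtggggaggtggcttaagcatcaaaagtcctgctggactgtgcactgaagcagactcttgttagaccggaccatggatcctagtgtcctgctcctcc
Array probes of near-identical genes, here and for Cyp4a12a and Cyp4a12b, Gsta1 and Gsta2 or Saa1 and Saa2, may bind each other's transcripts, which was not tested.

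The RefSeq promoters of 3 synergistic genes hold the letters TGANTCA, in which N is any base. The AP-1 core is TGACTCA or TGAGTCA, so TGANTCA is wider than that core. Whether AP-1 acts on these genes was not tested, and the share of synergistic genes with the letters was not counted. The motif was searched on both strands, where it reads the same, and 2565 of 32851 promoter windows in the table (7.81%) held it. The windows were picked after the values were seen, and a match describes the letters only. They lie on the plus strand of GRCm38.p6 at chr9:7272264-7272563 (Mmp13), chr6:49036268-49036567 (Gpnmb) and chr9:7347124-7347423 (the second of 2 entries for Mmp12, the first having no match), with the motif in capitals.
Mmp13: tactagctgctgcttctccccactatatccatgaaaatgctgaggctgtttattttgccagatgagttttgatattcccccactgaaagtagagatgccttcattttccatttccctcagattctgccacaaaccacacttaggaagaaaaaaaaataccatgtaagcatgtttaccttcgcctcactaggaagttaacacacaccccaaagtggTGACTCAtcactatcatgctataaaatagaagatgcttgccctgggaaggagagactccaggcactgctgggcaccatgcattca
Gpnmb: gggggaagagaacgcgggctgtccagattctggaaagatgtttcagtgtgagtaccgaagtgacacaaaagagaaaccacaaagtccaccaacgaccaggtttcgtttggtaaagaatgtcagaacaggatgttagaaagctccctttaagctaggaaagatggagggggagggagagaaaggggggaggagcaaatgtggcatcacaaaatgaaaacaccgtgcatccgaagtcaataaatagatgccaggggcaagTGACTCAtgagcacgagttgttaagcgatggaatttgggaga
Mmp12: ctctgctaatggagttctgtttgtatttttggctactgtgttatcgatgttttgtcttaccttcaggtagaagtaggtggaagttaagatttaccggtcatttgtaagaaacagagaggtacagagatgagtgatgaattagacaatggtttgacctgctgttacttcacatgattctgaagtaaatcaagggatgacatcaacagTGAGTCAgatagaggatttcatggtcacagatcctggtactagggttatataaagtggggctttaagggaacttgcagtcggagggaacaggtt

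Masked genes were the largest class, with 191 higher and 173 lower contrasts. The masked effect belonged to FXR loss alone in 201 genes, to SHP loss alone in 80 and to both single losses in 80, and 3 had single effects of opposite sign. Among the masked genes 24 were markers of other tissues, 21 of them pancreas genes that were high in SHP-/- and low in the double knockout, with the list means given above, and the part of that RNA in other masked SHP effects was not tested. In all 364 the double knockout, which lacks the same receptor, was not called against wild type, which the class rule requires. In 45 of the 364 the double knockout was called against neither single knockout, so a lost effect is not shown for these.

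The clearest masked rises in FXR-/- were Abhd1, a gene of the alpha/beta-hydrolase fold, and Psmc3ip, a factor of meiotic recombination. Levels of Abhd1 were 5.74 and 5.95 in wild type, 9.47 and 9.58 in FXR-/-, 6.30 and 6.25 in SHP-/- and 5.74 and 5.53 in the double knockout. Psmc3ip levels were 4.35 and 4.46 in wild type, 7.62 and 7.72 in FXR-/-, 4.83 and 4.74 in SHP-/- and 4.42 and 4.66 in the double knockout. The FXR-/- arrays stood more than 3 log2 units above wild type in both genes, and the double knockout was not called against wild type. SHP loss alone also raised Abhd1, by 0.43. The contrasts were -4.32 ± 0.19 (SE, adjusted p = 5.9e-12) and -3.51 ± 0.18 (SE, adjusted p = 8.6e-11), and a second Abhd1 probe gave -3.88. Neither gene showed a called contrast at 3 weeks (-0.16 and -0.11). Cyp2c50, a cytochrome P450 of xenobiotic and arachidonate oxidation, had a contrast of -2.82 ± 0.24 (SE, adjusted p = 9.7e-08) and a similar value at 3 weeks (-2.75).

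Masked falls in FXR-/- were larger in number. Psmd8, a subunit of the proteasome lid, stood at 10.54 and 10.53 in wild type, 8.16 and 8.20 in FXR-/-, 10.59 and 10.53 in SHP-/- and 10.61 and 10.94 in the double knockout. Serpina1e, an alpha-1-antitrypsin gene and male-biased in mouse liver, stood at 13.87 and 13.92 in wild type, 11.51 and 11.46 in FXR-/-, 13.82 and 13.97 in SHP-/- and 13.65 and 13.76 in the double knockout. The contrasts were 2.57 ± 0.16 (SE, adjusted p = 8.3e-10) and 2.22 ± 0.12 (SE, adjusted p = 1.4e-10), and both genes were low in FXR-/- alone. Csrp1, a LIM-domain protein, was detected in every group but FXR-/- and had a contrast of 2.54 ± 0.18 (SE, adjusted p = 5.3e-09). The contrast of Eif2s3y, low in FXR-/- alone, was 3.08 ± 0.28 (SE, adjusted p = 2.4e-07). Lyve1, the hyaluronan receptor of sinusoidal and lymphatic endothelium, had a contrast of 1.1 ± 0.19 (SE, adjusted p = 0.00038).

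Of the masked FXR effects with a size of at least 1, tissue markers left out, 31 genes remained, 9 risen and 22 fallen in FXR-/-. Over all 201 genes masked for FXR loss alone, FXR-/- was called at 3 weeks in the same direction in 83, in the opposite one in 11 and not in 107, and the 3-week contrast was called in the same direction in 63. In 27 of the 31 FXR-/- was called in the same direction at 3 weeks, on other arrays, where FXR loss was called in 22.7% of all genes. The 3-week contrast was called in the same direction in 22 of them, against 11.1% of all genes in either direction. Both ages compare FXR-/- mice with wild type, so FXR loss and any other difference of these mice cannot be told apart here.

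Among masked genes with a higher contrast, Cdkn1a, the cell-cycle inhibitor p21, was lowered by both single losses. Levels of Cdkn1a were 7.6 and 7.77 in wild type, 6.04 and 5.90 in FXR-/-, 6.23 and 5.97 in SHP-/- and 7.99 and 7.94 in the double knockout. FXR loss lowered it 3.29-fold and SHP loss 3-fold, and the double-knockout arrays lay above every wild-type array (contrast 3.58 ± 0.17, SE, adjusted p = 2.4e-11). A second probe gave 3.54. Gas7, an actin-binding growth-arrest gene, had a contrast of 2.64 ± 0.17 (SE, adjusted p = 2.6e-09) and effects of -2.12, -0.83 and -0.31 in FXR-/-, SHP-/- and the double knockout.

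Some markers of T and B lymphocytes were masked as well. Cd8b1, a chain of the T-cell co-receptor CD8, had a contrast of -1.50 ± 0.22 (SE, adjusted p = 8.9e-05), and Cd79b, a chain of the B-cell receptor complex, one of -1.46 ± 0.22 (SE, adjusted p = 0.00015). Against 7.56% higher and 5.5% lower over all genes, 0 of 10 lymphocyte markers tested were higher and 5 lower. Their summed intensity was 556.1 to 574.1 in wild type, 1090 to 1118 in FXR-/-, 739.0 to 752.6 in SHP-/- and 986.9 to 992.3 in the double knockout, so the double knockout lay between the single knockouts on the list as a whole. Cd3e lost its call when undetected values were raised to the detection floor (adjusted p = 0.11, against 0.00021).

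Overlapping genes numbered 65 with a higher and 87 with a lower contrast. Both single losses were called in 108 of them. In those 108 the double effect was smaller than both single effects in 47, between them in 49 and larger than both in 12, and in 50 the double knockout was called against neither single knockout. Both wild-type arrays lay outside the range of the other 6 in 133 of the 152, a pattern that 8.89% of all genes showed above and 8.59% below. The class rule uses the same arrays, and nothing is read from this count. A gene at one level in all 3 bred lines and another in the bought wild-type mice gives the same pattern, and the 2 cannot be told apart here.

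Cyp2c39, a retinoic acid hydroxylase, had the largest lower contrast outside the pancreas markers. Cyp2c39 levels were 5.07 and 5.05 in wild type, 10.12 and 10.12 in FXR-/-, 6.18 and 6.15 in SHP-/- and 5.54 and 5.51 in the double knockout (contrast -5.70 ± 0.14, SE, adjusted p = 3.1e-15). FXR loss alone raised it about 5 log2 units, and in the double knockout the rise was 0.47. Asns, asparagine synthetase and a target of the amino acid response factor ATF4, was raised by both single losses. Asns levels were 6.60 and 6.70 in wild type, 9.04 and 8.88 in FXR-/-, 9.53 and 9.47 in SHP-/- and 8.91 and 8.98 in the double knockout. All 3 knockouts lay about 2 to 3 log2 units above wild type, so that the double effect of 2.30 did not exceed that of FXR loss at 2.31 (contrast -2.87 ± 0.17, SE, adjusted p = 5.6e-10, and -1.52 on a second probe). Cish, a cytokine-signalling inhibitor induced by STAT5, stood at 5.88 and 5.81 in wild type, 7.02 and 7.01 in FXR-/-, 8.83 and 8.86 in SHP-/- and 7.47 and 7.59 in the double knockout, a contrast of -2.48 ± 0.13 (SE, adjusted p = 9.2e-11). Here SHP loss gave the larger single effect and the double knockout lay between the single knockouts. Dnaic1, an axonemal dynein chain, had a contrast of -2.83 ± 0.17 (SE, adjusted p = 5.1e-10), with the double knockout below both single knockouts.

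Some acute phase genes, 6 of 30 tested, were overlapping. The serum amyloid gene Saa2 stood at 7.33 and 7.04 in wild type, 11.15 and 11.13 in FXR-/-, 8.35 and 8.37 in SHP-/- and 9.83 and 10.02 in the double knockout and the neutrophil chemokine gene Cxcl1 had a contrast of -2.28 ± 0.17 (SE, adjusted p = 1.6e-08). The contrast was -2.39 ± 0.16 (SE, adjusted p = 4.6e-09) for Saa2 and -1.70 ± 0.15 (SE, adjusted p = 1.5e-07) for its near-identical neighbour Saa1, and FXR-/- was the highest group for both. Socs3, a feedback inhibitor of cytokine signalling named after its values were seen, had a contrast of -1.54 ± 0.19 (SE, adjusted p = 1.1e-05). Of 30 acute phase genes tested, 3 were higher (7.56% of all genes), 7 lower (5.5%) and 20 not called, with a median of -0.14 against 0.007 for all genes.

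Of 16 bile acid synthesis and conjugation genes tested, 3 were called higher and 4 lower (7.56% and 5.5% of all genes), and 3 of the called genes were overlapping. Cyp7a1, the rate-limiting enzyme of the classical pathway, stood at 8.55 and 8.72 in wild type, 11.54 and 11.50 in FXR-/-, 9.97 and 10.06 in SHP-/- and 11.66 and 11.65 in the double knockout. FXR loss raised Cyp7a1 7.37-fold, SHP loss 2.61-fold and the loss of both 8.13-fold. The double knockout differed from FXR-/- by 0.14 log2 units, which was not called, and the contrast was -1.24 ± 0.15 (SE, adjusted p = 7.4e-06). Cyp8b1, the sterol 12-alpha-hydroxylase that sets the share of cholic acid, stood at 12.63 and 12.61 in wild type, 13.36 and 13.35 in FXR-/-, 12.99 and 12.90 in SHP-/- and 13.14 and 13.40 in the double knockout. Its contrast of -0.40 ± 0.12 (SE, adjusted p = 0.031) was lost when any of 6 of the 8 arrays was left out in turn, with an adjusted p of up to 0.15 over all settings.

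Cholesterol synthesis genes were called in 1 direction, 0 higher and 12 lower of 18 genes tested, where 7.56% and 5.5% of all genes were called. Sqle, squalene epoxidase, stood at 9.06 and 9.01 in wild type, 9.97 and 10.06 in FXR-/-, 9.97 and 9.99 in SHP-/- and 9.71 and 9.98 in the double knockout (contrast -1.11 ± 0.15, SE, adjusted p = 4.8e-05). Msmo1, a sterol C4-demethylating enzyme, had a contrast of -1.02 ± 0.15 (SE, adjusted p = 1e-04), and Fdps, farnesyl diphosphate synthase, named after its values were seen, stood at 11.50 and 11.51 in wild type, 12.37 and 12.39 in FXR-/-, 12.16 and 12.21 in SHP-/- and 12.05 and 12.04 in the double knockout (contrast -1.02 ± 0.10, SE, adjusted p = 5e-07). In the 3 genes wild type lay below every knockout array, and the double knockout did not lie above the higher single knockout. Mvd and Mvk, enzymes of the mevalonate part of the pathway, were masked, with levels of 6.26 and 5.99 in wild type, 7.06 and 6.97 in FXR-/-, 6.96 and 7.0 in SHP-/- and 6.24 and 6.60 in the double knockout for Mvd and contrasts of -1.45 ± 0.18 (SE, adjusted p = 9.7e-06) and -1.05 ± 0.17 (SE, adjusted p = 0.00031). Summed over the 18 genes, intensity was 17430 to 17730 in wild type, 25200 to 25320 in FXR-/-, 25680 to 25750 in SHP-/- and 23860 to 24230 in the double knockout. Wild type at 3 weeks, on the other slide, stood at 27470 to 27540. The mean log2 level of the list at 5 weeks was 8.66 to 8.69 in wild type and 8.88 to 8.91 in the double knockout. It was 9.09 to 9.11 in FXR-/- and 9.08 to 9.13 in SHP-/-. The low level of the 2 bought wild-type arrays and a double knockout below both single knockouts thus both enter the contrast of the list. In the wild-type level genotype and mouse source cannot be told apart. The median contrast of the list was -0.62.

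Overlapping genes with a higher contrast had fallen in the single knockouts. Erdr1, an erythroid differentiation regulator, stood at 9.71 and 9.74 in wild type, 5.32 and 4.58 in FXR-/-, 8.90 and 8.65 in SHP-/- and 8.93 and 9.06 in the double knockout. Mgst1, a microsomal glutathione transferase, stood at 13.55 and 13.35 in wild type, 9.21 and 9.28 in FXR-/-, 13.36 and 13.40 in SHP-/- and 12.78 and 12.73 in the double knockout. Both were more than 4 log2 units lower in FXR-/- and less than 1 lower in the double knockout, with contrasts of 5.00 ± 0.24 (SE, adjusted p = 3.1e-11) and 3.58 ± 0.17 (SE, adjusted p = 2.7e-11). A second Erdr1 probe gave 1.75. Mgst1 was also low in FXR-/- at 3 weeks (-5.88) and had a 3-week contrast of 5.25. Mfsd2a, the lysophosphatidylcholine transporter, had a contrast of 3.38 ± 0.18 (SE, adjusted p = 1.7e-10). Olig1, a basic helix-loop-helix factor, stood at 7.21 and 7.18 in wild type, 4.29 and 4.34 in FXR-/-, 4.81 and 4.87 in SHP-/- and 4.79 and 4.75 in the double knockout, detected on both arrays of wild type alone (contrast 2.81 ± 0.17, SE, adjusted p = 5.9e-10). Both single knockouts stood near the detection limit, so a further fall could not be seen and the Olig1 contrast cannot show how the losses combine. The probe was undetected in a group in 14 of the 65 overlapping genes with a higher contrast.

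Of 14 gluconeogenesis and amino acid catabolism genes tested, 3 were called higher, 2 lower and 9 not, where 7.56% of all genes were higher and 5.5% lower. Ppargc1a, the PGC-1-alpha coactivator of gluconeogenesis, stood at 7.5 and 7.55 in wild type, 5.82 and 5.89 in FXR-/-, 6.81 and 6.78 in SHP-/- and 6.92 and 6.92 in the double knockout, a contrast of 1.79 ± 0.13 (SE, adjusted p = 1.6e-08). Pck1, the cytosolic phosphoenolpyruvate carboxykinase, had a contrast of 1.53 ± 0.21 (SE, adjusted p = 4.4e-05), and Foxo1, the insulin-regulated forkhead factor, one of 0.92 ± 0.16 (SE, adjusted p = 0.00051). Angptl4, a secreted lipoprotein lipase inhibitor, stood at 10.44 and 10.29 in wild type, 9.29 and 9.22 in FXR-/-, 9.15 and 9.16 in SHP-/- and 9.70 and 9.73 in the double knockout (contrast 1.66 ± 0.11, SE, adjusted p = 3.3e-09). Wild type was highest for all 4 genes, and the double knockout lay above the single knockouts or between them. Herpud1, an ER-associated degradation protein, had a contrast of 1.27 ± 0.11 (SE, adjusted p = 1.2e-07).

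Among reversed genes 104 had a higher and 33 a lower contrast, and 28 of the 137 were markers of other tissues, 27 of them among the higher. Muscle genes, nearly missing in FXR-/- alone by the levels above, made up 26 of the 28, and the part of muscle RNA in the other reversed genes was not tested. Fabp3, not on the marker lists, had a contrast of 4.60 ± 0.18 (SE, adjusted p = 1.2e-12 by limma). Its mean level was lowest with FXR loss (4.35, undetected), then 9.03 for wild type, 9.88 for the double loss and 9.95 for SHP loss. The muscle list has the same order. At 3 weeks FXR loss raised Fabp3 by 3.82 and Acta1 by 5.50. Whether Fabp3 reflects muscle RNA was not tested. The largest contrast outside the listed markers was that of Cyp2c55, a cytochrome P450 induced through CAR and PXR. Cyp2c55 levels were 7.25 and 7.28 in wild type, 5.83 and 5.94 in FXR-/-, 5.84 and 5.59 in SHP-/- and 9.57 and 9.23 in the double knockout. Each single loss lowered it, by 1.38 and 1.55 on the log2 scale, and the loss of both raised it 4.39-fold (contrast 5.06 ± 0.19, SE, adjusted p = 8.4e-13). Levels of Cyp2b9 were 5.16 and 5.34 in wild type, 4.31 and 4.20 in FXR-/-, 6.73 and 6.43 in SHP-/- and 10.26 and 10.21 in the double knockout. It was not detected in FXR-/-, and the double knockout stood 12.6-fold above SHP-/- and at least 39.6-fold above FXR-/- (contrast 4.65 ± 0.15, SE, adjusted p = 1e-13). Cyp2b10 and Cyp2c29, P450 genes named after their values were seen, had contrasts of 2.35 ± 0.22 (SE, adjusted p = 2.9e-07) and 2.43 ± 0.24 (SE, adjusted p = 8.9e-07).

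The glutathione transferase genes Gsta1 and Gsta2 and the metallothionein gene Mt2 were lowered by SHP loss, raised by FXR loss and raised further by the loss of both. Gsta2 stood at 6.53 and 6.49 in wild type, 7.26 and 7.31 in FXR-/-, 5.69 and 5.52 in SHP-/- and 9.07 and 8.90 in the double knockout (contrast 2.60 ± 0.17, SE, adjusted p = 2.8e-09), and its close relative Gsta1 had a contrast of 2.30 ± 0.21 (SE, adjusted p = 2.7e-07). For Mt2, a metal-binding metallothionein, the levels were 7.21 and 7.24 in wild type, 8.23 and 8.25 in FXR-/-, 6.63 and 6.68 in SHP-/- and 9.47 and 9.53 in the double knockout (contrast 1.83 ± 0.12, SE, adjusted p = 3.9e-09). In these 3 genes the groups ranked SHP-/-, wild type, FXR-/- and double knockout from low to high with no overlap. Cxcl9, an interferon-gamma-induced chemokine, was lowered by SHP loss (-0.76) and raised by the loss of both (1.28), a contrast of 2.0 ± 0.13 (SE, adjusted p = 2.2e-09).

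Fatty acid omega-hydroxylases that PPAR-alpha induces were lowered by FXR loss and raised by the loss of both. Cyp4a14 stood at 9.66 and 9.61 in wild type, 8.16 and 8.12 in FXR-/-, 10.08 and 10.11 in SHP-/- and 11.12 and 11.08 in the double knockout (contrast 2.50 ± 0.11, SE, adjusted p = 5.3e-12), and Cyp4a10 had effects of -0.48, -0.56 and 0.65 in FXR-/-, SHP-/- and the double knockout (contrast 1.69 ± 0.10, SE, adjusted p = 8.3e-10). Of 20 fatty acid oxidation and PPAR-alpha target genes tested, 7 were higher and 0 lower (7.56% and 5.5% of all genes). Egr1, an immediate early transcription factor, stood at 9.18 and 9.38 in wild type, 8.10 and 8.0 in FXR-/-, 8.73 and 8.91 in SHP-/- and 9.56 and 9.80 in the double knockout (contrast 2.09 ± 0.15, SE, adjusted p = 6.2e-09), low in FXR-/- and highest in the double knockout. Ccnd1, cyclin D1, had a contrast of 1.59 ± 0.13 (SE, adjusted p = 5.1e-08), with 3 further probes at 0.47 to 1.33.

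Lipa and Fcer1g were low in FXR-/- alone. Lipa, lysosomal acid lipase, stood at 9.72 and 9.87 in wild type, 6.08 and 6.09 in FXR-/-, 9.68 and 9.80 in SHP-/- and 10.25 and 10.11 in the double knockout (contrast 4.15 ± 0.18, SE, adjusted p = 8.3e-12). Fcer1g, the common gamma chain of Fc receptors, stood at 7.41 and 7.37 in wild type, 4.29 and 4.22 in FXR-/-, 7.47 and 7.36 in SHP-/- and 7.87 and 8.02 in the double knockout and was not detected in FXR-/- (contrast 3.67 ± 0.14, SE, adjusted p = 1.2e-12). At 3 weeks both were low in FXR-/- as well (-4.32 and -3.34), with contrasts of 3.90 and 3.09.

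Of the 33 reversed genes with a lower contrast, 11 were raised by SHP loss and lowered by FXR loss, 6 were raised by SHP loss alone, 10 by FXR loss alone and 5 by both. Dct, dopachrome tautomerase, stood at 8.37 and 8.53 in wild type, 8.69 and 8.75 in FXR-/-, 9.75 and 9.81 in SHP-/- and 7.79 and 7.84 in the double knockout (contrast -2.23 ± 0.12, SE, adjusted p = 1.6e-10). Creld2, an ER chaperone induced by ER stress, had effects of 1.12 under SHP loss, 0.25 under FXR loss and -0.40 under the loss of both (contrast -1.76 ± 0.11, SE, adjusted p = 1.6e-09). Prxl2b, a prostamide and prostaglandin F synthase, had a contrast of -1.68 ± 0.14 (SE, adjusted p = 1.1e-07). Igtp, an interferon-gamma-induced GTPase, was raised by FXR loss instead (1.15) and lower than wild type in the double knockout (-0.30), a contrast of -1.52 ± 0.13 (SE, adjusted p = 6.3e-08).

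**Figure D3:**
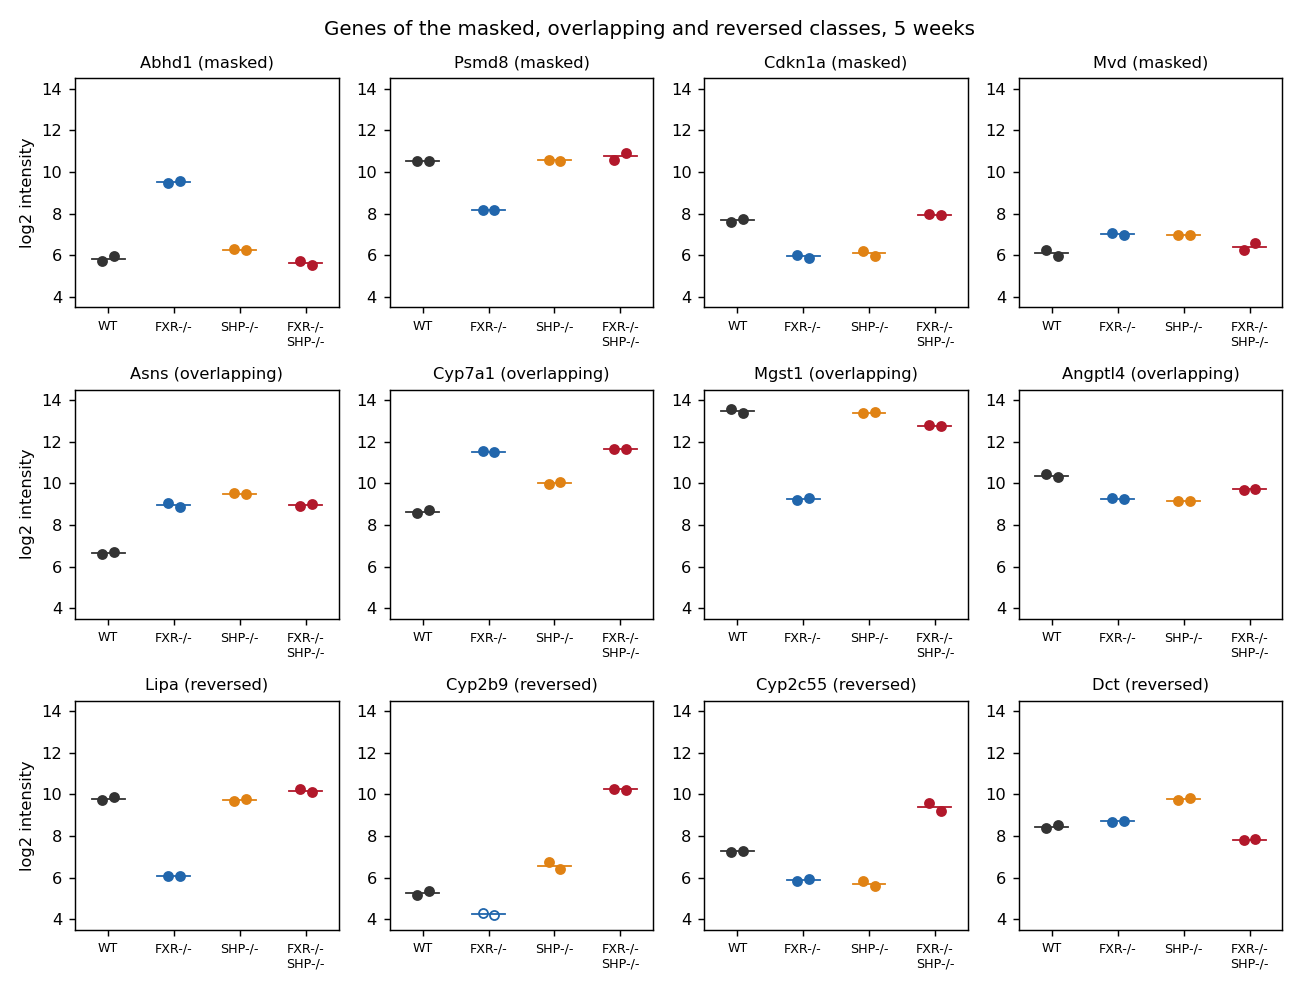
Log2 normalized intensity of 12 masked, overlapping or reversed genes on each of the 8 arrays at 5 weeks, with a bar at each group mean of 2 arrays and open symbols for groups without detection on both arrays. Psmd8, Mgst1 and Lipa are low in FXR-/- alone, Asns is low in wild type alone, and Cyp2c55 is high in the double knockout and low in both single knockouts.

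Of 17 female-biased liver genes tested, 12 were higher and 1 lower (7.56% and 5.5% of all genes), with a median contrast of 1.1. Of 16 male-biased genes 1 was higher and 7 lower, beside the same shares of all genes, with a median of -0.35. The mean log2 level of the female-biased list was 6.01 to 6.10 in wild type, 6.86 to 6.88 in FXR-/-, 6.12 to 6.13 in SHP-/- and 8.10 to 8.13 in the double knockout. The male-biased list ran the other way, at 10.89 to 10.90, 10.31 to 10.34, 10.69 to 10.75 and 9.82 to 9.87. All mice were male by label. Cyp2b13, Cyp2b9 and Cyp2b10 also belong to the list of CAR and PXR targets, and the 1 lower member was Cyp2c39.

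Of 31 CAR and PXR targets tested, genes of drug metabolism, 14 were higher, 3 lower and 14 not called, with a median of 0.42. Over all genes 7.56% were higher and 5.5% lower. The mean level of the 31 targets was 8.78 to 8.79 in wild type, 9.33 in FXR-/-, 8.53 to 8.57 in SHP-/- and 9.87 to 9.94 in the double knockout. SHP loss alone lay under wild type and the double knockout above every other group. Of 24 NRF2 targets, genes of the oxidant response, 9 were higher, 1 lower and 14 not called, beside the same shares of all genes.

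Of 18 immediate early and heat shock genes tested, 11 were higher and 0 lower (7.56% and 5.5% of all genes), with a median of 0.66. The mean level was 7.36 to 7.44 in wild type, 7.33 to 7.37 in FXR-/-, 7.34 to 7.41 in SHP-/- and 8.05 to 8.11 in the double knockout. These ranges overlapped among the first 3 groups. Klf6 and Ier3, named after their values were seen, had contrasts of 1.0 ± 0.12 (SE, adjusted p = 6.5e-06) and 0.96 ± 0.19 (SE, adjusted p = 0.002).

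Counts in other lists stand against 7.56% higher and 5.5% lower over all genes. Of 22 stellate cell and matrix markers, 6 were higher and 0 lower, and of 20 endothelial markers 4 were higher and 0 lower. Of 16 genes of glycine, serine, methionine and carbon-unit metabolism, 1 was higher and 6 lower, among them Shmt1 (-0.95), Bhmt (-0.98) and Cth (-1.01). Without the second double-knockout array, which had weak controls, the contrast was -0.69 for Bhmt and -0.72 for Cth. The summed intensity of the 16 genes was 23950 on the first double-knockout array and 20730 on the second. Of 26 reported FXR target genes 3 were higher and 1 lower, with a median of -0.06, near the share over all genes, and of 17 reported SHP-repressed genes and partners 3 were higher and 4 lower. Circadian clock genes were called in both directions, 3 higher and 3 lower of 11. The lists were chosen with earlier results of these data known, and their counts carry no test of their own.

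**Figure D4:**
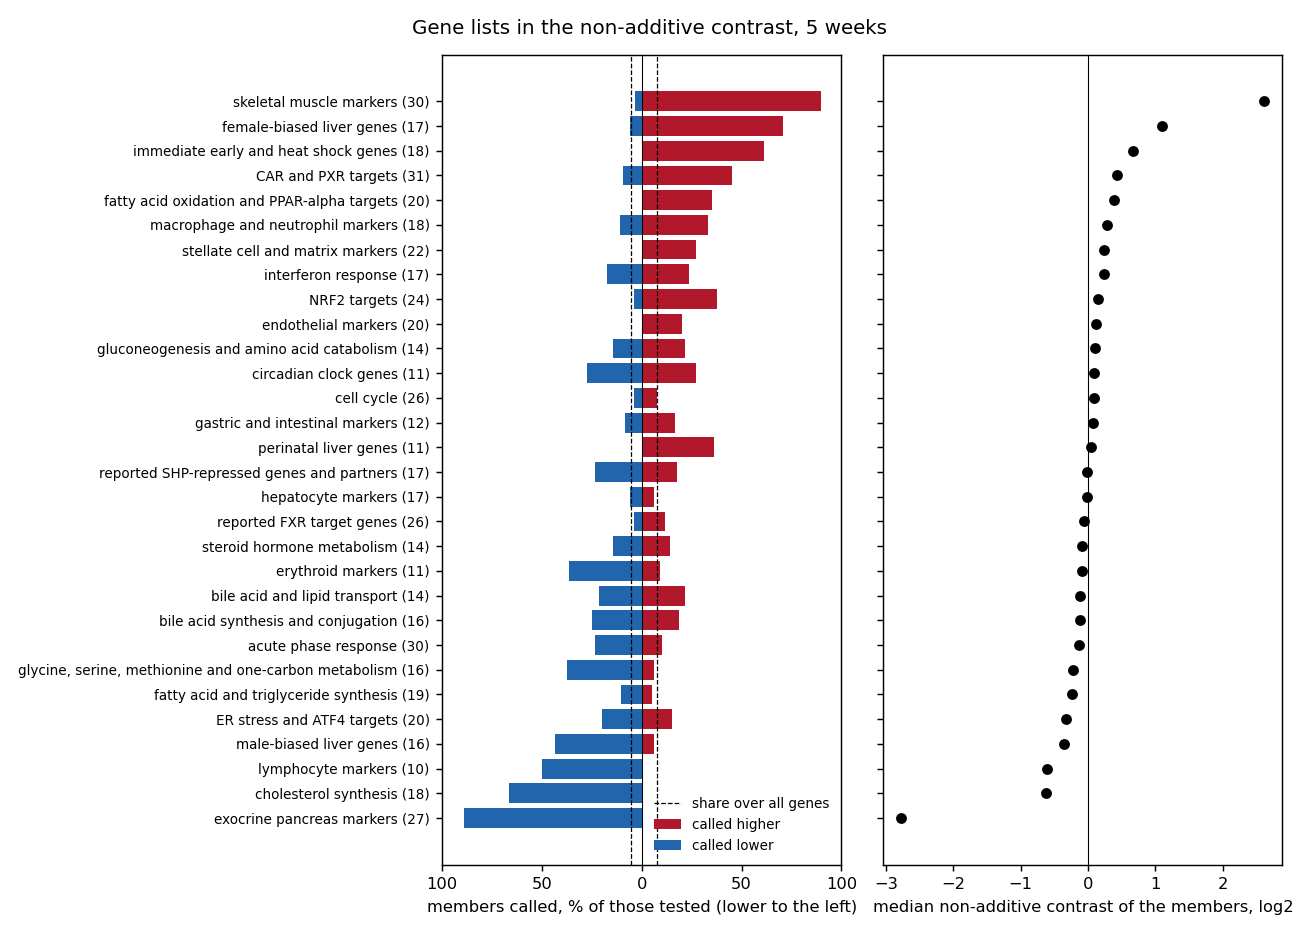
Gene lists with at least 10 tested members (number in brackets), ordered by median contrast. The left panel gives the share of members called higher or lower with dashed lines at 7.56% and 5.5% for all genes, and the right panel the median contrast in log2. Muscle and pancreas markers lie at the ends, and female-biased genes and cholesterol synthesis lie next to them.

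The contrast was compared with that of 8 arrays from 3-week mice, which were on another slide, so that age and slide cannot be told apart. At 3 weeks 902 genes (11.1%) had a called contrast, 5.72% higher and 5.36% lower, and the difference between the ages was called in 527 (6.47%), with 3.64% higher and 2.84% lower at 5 weeks. Of the 226 redundant genes, 48 were called in the same direction at 3 weeks and 21 in the opposite one. The counts were 10 and 6 of 47 for synergistic, 98 and 25 of 364 for masked, 69 and 12 of 152 for overlapping and 49 and 13 of 137 for reversed genes. Cyp2b9 and Cyp17a1 had contrasts of 4.63 and 2.51 at 3 weeks, against 4.65 and 3.28 at 5 weeks, and Cyp2b13 had 2.33. The 3-week contrast of Sult2a2 was 0.01, and the difference between ages was 2.99 ± 0.21 (SE, adjusted p = 9.8e-09). Immediate early genes had opposite signs at 3 weeks, with -1.30 for Fos, -1.58 for Egr1 and -1.90 for Atf3, all 3 called.

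**Figure D5:**
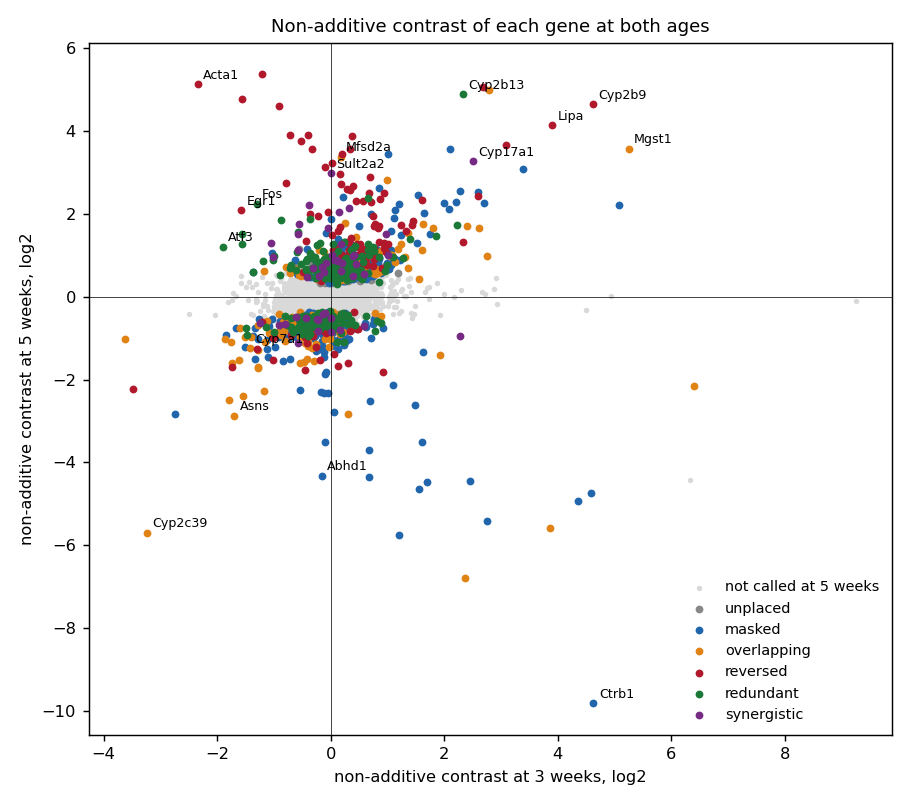
Non-additive contrast in log2 at 3 weeks (horizontal) and 5 weeks (vertical) for each of 8140 genes, coloured by class at 5 weeks. Cyp2b9, Cyp17a1, Lipa and Mgst1 are positive at both ages, and Fos, Egr1 and Atf3 are positive at 5 weeks and negative at 3 weeks.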

How the data were processed

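RNA from whole liver was hybridised to Illumina mouse Ref-8 v1.1 bead arrays, 16 in all, of which the 8 of 5-week mice carry the contrast. Per the file headers, the deposited intensity of each probe was exported by BSGX 3.2.3 with no normalization, beside a detection p-value per probe and the bead standard error, in units of signal, and BeadStudio is named in the labels. Negative controls averaged 35.9 to 37.2 on the 5-week arrays, so background was still present in these values. The authors' deposited processed values were quantile normalized on a log2 scale; their transform is not given in the sources used here, and they served as an alternative. The 16 value columns of bead numbers were not used.

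From the deposited intensities, background was corrected with negative-control parameters inferred from the detection p-values and arrays were quantile normalized (neqc, offset 16, limma 3.58.1, R 4.3.3). Of 24613 probes, 10998 (44.7%) were detected (p-value below 0.01) by both arrays of 1 or more groups, 9728 of these named 1 gene by the platform's annotation, and the brightest probe per gene gave 8140 genes. Over all probes 20984 named 1 gene, 1 several and 3628 none. All 16 arrays entered 1 limma fit (lmFit, contrasts.fit, eBayes with trend, 8 residual degrees of freedom), with Benjamini-Hochberg adjustment over all genes, and calls were made below an adjusted p of 0.05. Standard errors in the report come from that fit, with 2 arrays per group. For probes not detected in a group, a fold is given as a bound. The number of arrays limits the precision. The script was tested on simulated data.

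Genes were named by rule: the targeted genes, Cyp7a1, Cyp8b1, Cyp17a1 and Abcb11, per class and sign up to 4 genes with the largest contrast outside the lists of other tissues and of Y-linked genes, and per list up to 4 called members. Others are stated as chosen after their values were seen. Members and lists were chosen with earlier results of these data known. Promoters and their coordinates come from RefSeq (GRCm38.p6). Replicate numbers did not pair the arrays (correlations of duplicate differences from -0.133 to 0.122).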

Additional observations from a re-analysis of the deposited data

Results flagged for a closer look

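The 97 named genes counted here do not include Cyp4a12a or Fabp3. The non-additive contrast of 60 of the 97 differed between the ages by limma's test of the difference itself (adjusted p up to 0.049), 36 higher and 24 lower at 5 weeks. The genes were named in large part for their 5-week contrast, which is a term of the difference, so this count says nothing about genes in general. Values are the 5-week contrast minus the 3-week contrast in log2. Age and slide cannot be told apart in them.

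Markers of other tissues had the widest differences, at 7.47 for Acta1 and -14.45 for Ctrb1. Muscle and pancreas RNA were spread differently over the genotypes at the 2 ages. Stress and immediate early genes differed by 3.67 for Egr1, 3.56 for Fos, 3.11 for Atf3, 2.09 for Jun, 1.97 for Ier3 and 0.98 for Klf6. All 6 had the higher contrast at 5 weeks. Among immune and matrix genes the difference was 3.08 for Cd14, 2.61 for Mmp13, 1.89 for Mmp12, 1.81 for Gpnmb, 2.36 for Cxcl9, 2.33 for Ly6d, 1.03 for Timp1 and 0.76 for Lgals3. It was -1.33 for Cd3e, -1.34 for Cd79b, -1.10 for Cxcl1 and -0.85 for Saa2, genes of lymphocytes and the acute phase with the lower contrast at 5 weeks.

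Metabolic enzymes of the cytochrome P450 and conjugation families differed by 2.99 for Sult2a2, 2.57 for Cyp2b13, 2.37 for Cyp2c55, 2.31 for Gsta2, 1.58 for Gsta1, 1.72 for Gstm3, 1.83 for Cyp4a14, 1.52 for Cyp4a10, 1.70 for Alas1 and 0.77 for Cyp17a1 in the higher direction. The lower direction held -3.22 for Cyp4a12b, -2.45 for Cyp2c39 and -1.61 for Cyp7b1. Further lipid, steroid and fasting genes differed by 3.21 for Mfsd2a, 2.74 for Acot3, 2.25 for Akr1c18, 1.53 for Ppargc1a and -0.96 for Angptl4. Cholesterol synthesis genes had the lower contrast at 5 weeks, at -1.02 for Fdps, -1.09 for Mvk and -0.93 for Msmo1.

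Of the other genes, those with the higher contrast at 5 weeks had differences of 2.21 for Erdr1, 1.82 for Olig1, 1.79 for Gas7, 1.72 for Gipc2, 1.48 for Cdkn1a, 1.46 for Ccnd1 and 1.26 for Dct. Those with the lower contrast had -0.69 for Cish, -0.85 for Serpina9, -1.17 for Asns, -1.19 for Bik, -1.31 for Creld2, -1.33 for Upk3b, -1.67 for Mgst1, -1.80 for Prxl2b, -2.86 for Serpina1e, -3.14 for Dnaic1, -3.40 for Psmc3ip and -4.17 for Abhd1. The FXR-/- effect was 3.68 at 5 weeks and -0.58 at 3 weeks for Abhd1, and 3.27 and 0.44 for Psmc3ip.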

How the results depend on the processing

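The count of 1063 called genes ranged from 777 to 920 over the 8 settings that left out 1 array, was 645 at an adjusted p under 0.01 and 294 with a size of at least 1. A stricter threshold makes fewer calls by construction, and the cause of the changes with an array left out was not tested. At an adjusted p under 0.01 the classes held 137 redundant, 30 synergistic, 233 masked, 87 overlapping, 84 reversed and 74 unplaced genes, and with a size of at least 1 they held 32, 14, 99, 54, 90 and 5. With classes set by an effect size of 0.58 in place of calls, there were 28 synergistic, 85 overlapping, 54 reversed and 456 unplaced genes. Median centring left 57 unplaced genes, and the cause was not tested. With 1 array left out the classes ranged from 147 to 197 (redundant), 29 to 46 (synergistic), 268 to 351 (masked), 102 to 128 (overlapping), 82 to 128 (reversed) and 78 to 149 (unplaced). SHP loss was called in 413 genes without its first array and in 724 with it. The count of genes that differed between ages was 307 at an adjusted p under 0.01, 316 with a size of at least 1, and 414 to 482 with 1 array left out. The replicate number as a block gave 1066 called genes, against 1063 without it, and the 97 named genes kept their calls under the block. Every kept probe tested by itself gave 1363 calls, and the 8 arrays of 5-week mice alone gave 1206. Of the 1063 called genes 182 had another kept probe. All other probes of a gene had the same sign in 156 of the 182, and in 58 all of them were also called. In 2 genes, Spc24 and Esd, another probe was called in the opposite direction. The Cyp4a12b contrast turned positive, at 593 intensity units, on linear intensities. Precision is limited by 2 arrays per group and, for 205 called genes, by a group in which the probe was not detected. For such genes the size of the contrast changed with the processing, and the standard errors do not cover this. Over the other settings on the log2 scale it was 1.23 to 2.59 for Gipc2, 1.25 to 2.68 for Gas7 and 0.48 to 1.39 for Atf3. These 3 genes kept their calls.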
